A study of Homo sapiens with 6 samples.

Results

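Replication-independent histone variants were examined in KYSE510, an established human cell line of oesophageal squamous cell carcinoma. The genes were taken by symbol as a named set, by a rule that uses no measured value, although earlier results of these data were known when the set was named: H2AZ1, H2AZ2, H2AX, H2AJ, MACROH2A1, MACROH2A2, H3-3A, H3-3B and H1-10, which are 9 of the 62700 genes in the count table. The study made 3 libraries of cells carrying a short hairpin RNA, labelled shRNH1 with the genotype RNH1 knockdown, and 3 libraries of cells labelled shControl with the genotype WT. All cells had the same medium with serum, and the stated purpose was a model in which R-loops, RNA-DNA hybrids that displace a DNA strand, are induced. The labels do not say whether the shRNH1 cells are 1 clone or how long they had carried the hairpin.

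Most histone mRNAs are made in S phase from clustered genes without introns, and end in a conserved stem-loop in place of a poly(A) tail. Variant histones are instead transcribed through the cell cycle from genes outside those clusters, yield polyadenylated mRNA, and are put into chromatin by dedicated chaperones and remodelling complexes. H2A.Z marks promoters and enhancers, H3.3 fills active genes and telomeres, H2A.X is phosphorylated around DNA breaks, macroH2A carries a large domain that can bind ADP-ribose, and linker histones such as H1.10 sit where DNA enters and leaves the nucleosome. R-loops are known to form in transcribed chromatin and to be sources of DNA breaks, and RNase H1 removes them by cutting their RNA strand.

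The sequences printed here show how some of the 9 genes are built. H2AX is a hybrid between the classes: its transcript is polyadenylated, and it also holds the stem-loop of replication-dependent histone mRNAs. In GENCODE 29 on GRCh38 the match lies at chr11:119094898-119094913 on the minus strand, in the 3′ untranslated region. It starts 53 bases after the last base of the last amino acid codon and ends 1044 bases before the end of the transcript. The H2AX match is shown first, followed by the form found most often, in 15 genes, among the replication-dependent histone genes, with the stem-loop in capitals.
H2AX stem-loop: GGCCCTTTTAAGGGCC
Most frequent replication-dependent stem-loop: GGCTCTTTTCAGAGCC
The search, on the transcript's strand and anywhere in a transcript, took a perfectly paired stem of 6 bases, made of GG, any 3 bases and T, around a loop of 4 bases, TTTN. H2AX was the only member of the 9 with a match. A match was found in 37 of 19684 protein-coding genes (0.188%) and in 27 of 65 replication-dependent histone genes (41.5%). The search needs exact pairing and an annotated transcript that reaches the stem-loop, so a gene without a match may still have one.

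Promoters are shown for the H2A.Z pair, whose members differed in response, and for H2AX and H1-10, a gene that fell and a gene that rose. Each is the RefSeq window on GRCh38.p14 of 250 bases before to 50 bases after the transcription start, 5′ to 3′ on the gene's strand, with CCAAT or its reverse complement ATTGG and TATAAA or its reverse complement TTTATA in capitals. The windows lie at chr4:99950226-99950525 (H2AZ1), chr7:44848038-44848337 (H2AZ2), chr11:119095416-119095715 (H2AX) and chr3:129316237-129316536 (H1-10), all on the minus strand.
H2AZ1: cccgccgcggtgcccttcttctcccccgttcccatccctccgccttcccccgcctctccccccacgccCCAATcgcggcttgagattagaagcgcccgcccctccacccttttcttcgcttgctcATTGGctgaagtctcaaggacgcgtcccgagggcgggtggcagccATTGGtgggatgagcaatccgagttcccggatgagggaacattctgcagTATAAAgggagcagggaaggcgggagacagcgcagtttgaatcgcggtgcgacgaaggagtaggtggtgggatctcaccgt
H2AZ2: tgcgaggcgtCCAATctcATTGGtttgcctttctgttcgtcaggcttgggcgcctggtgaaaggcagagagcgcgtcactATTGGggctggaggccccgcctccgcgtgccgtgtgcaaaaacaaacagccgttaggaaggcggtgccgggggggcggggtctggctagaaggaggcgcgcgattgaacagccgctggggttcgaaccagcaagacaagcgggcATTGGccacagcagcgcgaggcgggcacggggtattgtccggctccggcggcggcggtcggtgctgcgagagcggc
H2AX: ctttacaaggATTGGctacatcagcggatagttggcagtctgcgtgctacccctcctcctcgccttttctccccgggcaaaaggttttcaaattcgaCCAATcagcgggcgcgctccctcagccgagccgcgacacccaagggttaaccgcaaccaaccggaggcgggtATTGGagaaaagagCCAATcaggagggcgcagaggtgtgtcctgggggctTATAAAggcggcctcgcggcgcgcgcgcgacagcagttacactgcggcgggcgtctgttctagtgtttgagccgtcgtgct
H1-10: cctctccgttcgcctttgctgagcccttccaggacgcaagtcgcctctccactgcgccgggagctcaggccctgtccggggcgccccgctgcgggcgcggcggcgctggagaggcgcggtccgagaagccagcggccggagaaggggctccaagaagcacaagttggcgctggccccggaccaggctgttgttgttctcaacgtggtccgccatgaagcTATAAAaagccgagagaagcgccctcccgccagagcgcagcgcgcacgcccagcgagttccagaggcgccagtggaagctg
The H2AZ1 window held 3 CCAAT matches, counted on both strands, those of H2AZ2 and H2AX held 4 each, and that of H1-10 held 0. The 9 members have 13 such windows. At least 3 matches were found in 5 of the 13, those of H2AZ1, H2AZ2, H2AX, H2AJ and H3-3B, against 3.26% of 35116 RefSeq promoter windows of the same length. TATAAA was in 4 of the 13, those of H2AZ1, H2AX, H3-3B and H1-10, against 11.5% of all windows. Of these members H2AZ2 and H1-10 rose, H2AX and H3-3B fell, and H2AZ1 and H2AJ did not pass the edgeR test. A match is a description of the letters alone.

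Library totals ran from 31394687 to 41103220 counts, and the 9 genes together took 0.213% to 0.238% of them. RNASEH1, which encodes RNase H1, averaged 7.16 ± 0.213 CPM (normalised counts scaled to library size) in shRNH1 libraries and 31.6 ± 3.73 CPM in shControl libraries (SD, n = 3 each), a log2 fold change of -2.14 (edgeR adjusted p = 1.61e-13). The gene whose symbol is RNH1, the ribonuclease inhibitor, did not pass the test (log2 fold change -0.19, edgeR adjusted p = 0.221). The 10 markers of squamous epithelium summed to 1735 to 1785 CPM in shRNH1 libraries and 1581 to 1912 CPM in shControl libraries. All 10 passed the filter on low counts. These sums overlapped, but single squamous markers changed in both directions. KRT5 (log2 fold change -1.33), KRT14 (-1.396), S100A2 (-0.71) and SFN (-0.37) fell. TRIM29 (0.55), PERP (0.54) and PKP1 (at most 0.598 CPM in any library) rose, while TP63, KRT17 and DSG3 did not pass the test. Of the other lists, 6 simple epithelial markers summed to 4720 to 4944 CPM in shRNH1 libraries and 6335 to 8205 CPM in shControl libraries, and 6 leukocyte markers to 1.89 to 2.39 CPM in shRNH1 libraries and 0.677 to 0.873 CPM in shControl libraries. Among the simple epithelial markers KRT8 (-0.56) and KRT18 (-0.92) fell and VIL1 (2.32) rose, while KRT19 and KRT20 did not pass the test. Only 2 of the leukocyte markers passed the filter on low counts. ITGAM rose (2.27, at most 0.879 CPM in any library), and CD14 did not pass the test. The 6 fibroblast markers summed to 111 to 133 CPM in shRNH1 libraries and 62.5 to 71.9 CPM in shControl libraries, with COL1A2 and DCN listed at 0. COL1A1 alone had 131, 129 and 109 CPM in shRNH1 libraries, against 59.1, 60.1 and 68.2 CPM in shControl libraries. PDGFRB, the other fibroblast marker that passed the filter on low counts, fell (log2 fold change -0.91, edgeR adjusted p = 0.00103). It had 1.80, 2.02 and 1.67 CPM in shRNH1 libraries, against 3.39, 3.39 and 3.56 CPM in shControl libraries. The 4 endothelial markers summed to 18.4 to 20.7 CPM in shRNH1 libraries and 20.0 to 21.8 CPM in shControl libraries, with KDR listed at 0. PECAM1 rose (0.51, edgeR adjusted p = 0.0234), while CDH5 (-0.26) and VWF (-0.42) did not pass the test. The part of these markers in the results was not tested, and in bulk RNA fewer cells of a type and less RNA per cell cannot be told apart.

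Of the 9 variant genes, H2AZ2 and H1-10 rose, H2AX, MACROH2A2 and H3-3B fell, and H2AZ1, H2AJ, MACROH2A1 and H3-3A did not pass the test. All 9 had passed the filter on low counts. A gene is called here when its edgeR quasi-likelihood p, adjusted by Benjamini-Hochberg over the 19682 genes tested, is under 0.05. The 2 rises and 3 falls stand against a background in which 27.6% of all tested genes were called, 15.3% higher and 12.3% lower in shRNH1 cells. That share depends on the genes tested, here and for the lists below. With protein-coding genes alone 4971 of 13352 genes were called, a larger share, and 5 of the 9 members. For 7 of the 9 genes the 3 shRNH1 libraries did not overlap the 3 shControl libraries, as was the case for 40.0% of all tested genes. Over the 9 genes the median log2 fold change was 0.12, and over all tested genes 0.02. Library size alone as scaling, in place of TMM, moved the median of all genes to 0.13 and called 5 members higher and 1 lower. Over all genes it raised the share of calls that were higher in shRNH1 cells to 73.9%, in place of 55.4%.

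**Figure D1:**
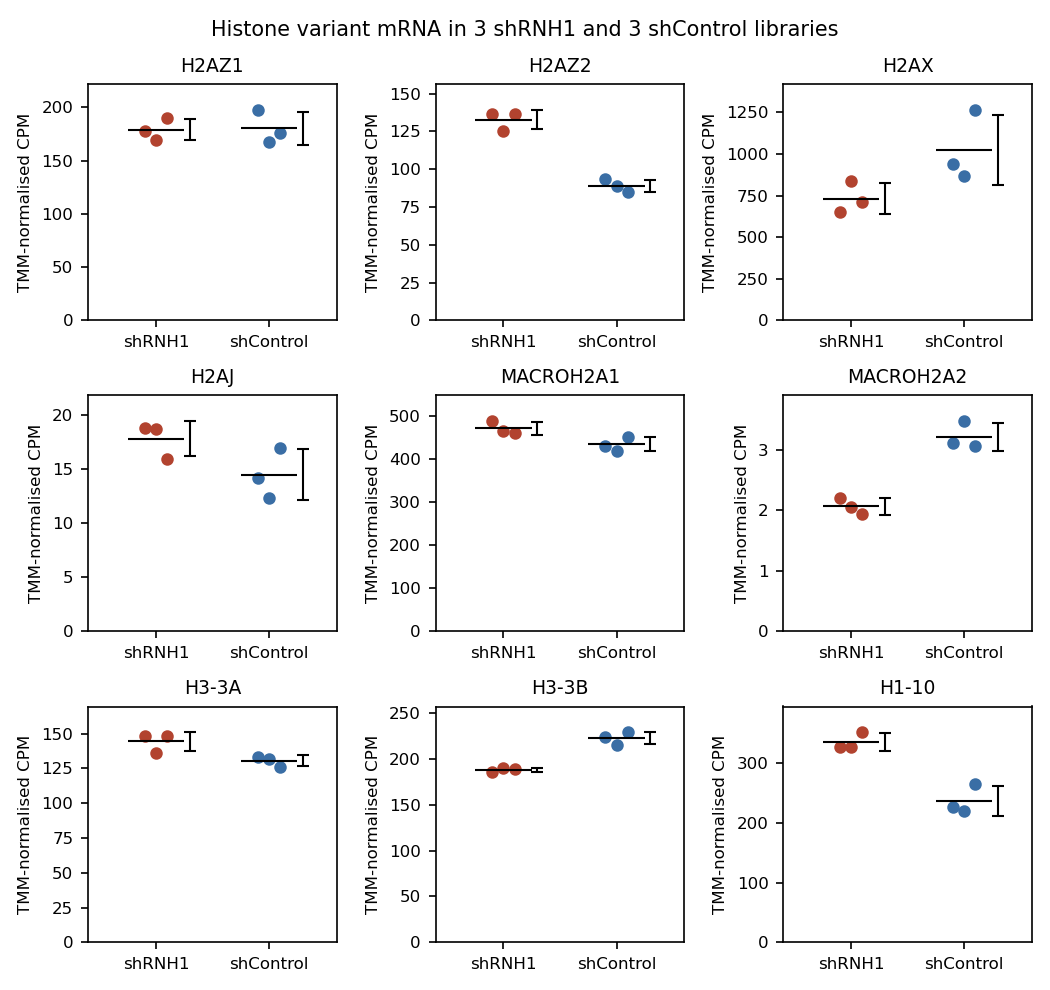
TMM-normalised CPM of the 9 histone variant genes in each library, on linear axes from 0; points are the 3 shRNH1 libraries (left) and the 3 shControl libraries (right), horizontal lines are means and bars are ± 1 SD. H2AZ2 and H1-10 lie higher in shRNH1 libraries, H2AX, MACROH2A2 and H3-3B lie lower, and the groups overlap for H2AZ1 and H2AJ.

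The H2A.Z proteins are encoded by H2AZ1 and H2AZ2, which differ at few residues. H2AZ2 (ENSG00000105968, chr7:44826791-44848083, minus strand) had 136, 125 and 137 CPM in shRNH1 libraries, against 93.3, 88.7 and 85.1 CPM in shControl libraries. Every shRNH1 library was above every shControl library, and the distance between the groups was several times the spread within them. H2AZ2 rose 1.49-fold (95% interval 1.31 to 1.70; log2 fold change 0.58, SE 0.0901, edgeR adjusted p = 1.95e-05). It kept its call under all 16 alternative settings, with log2 fold changes of 0.55 to 0.69.

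H2AZ1 (ENSG00000164032, chr4:99948086-99950388, minus strand) had 178, 169 and 190 CPM in shRNH1 libraries, against 198, 167 and 176 CPM in shControl libraries. The groups overlapped throughout. Its log2 fold change was -0.01 (SE 0.0941, edgeR adjusted p = 0.949), and the 95% interval of the fold was 0.868 to 1.13, which leaves out the 1.49-fold seen for H2AZ2.

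The shift within the pair can be read inside each library, where no scaling between libraries enters. H2AZ1 made up 56.6%, 57.5% and 58.1% of the summed counts of both genes in shRNH1 libraries, against 67.9%, 65.4% and 67.5% in shControl libraries. The groups did not overlap, and the mean share was 57.4% ± 0.734 in shRNH1 cells and 66.9% ± 1.37 in shControl cells (SD, n = 3 each), a difference of -9.52 percentage points. An exact two-sided permutation test gave p = 0.1 (0.1 after Benjamini-Hochberg adjustment over 3 pairs), the smallest that 3 against 3 allows. Weighting by the longest coding transcript, 979 bases for H2AZ1 and 3804 for H2AZ2, made the difference smaller, -4.75 points, in the same direction. The size of that change depends on the length chosen, as the median coding transcript of H2AZ2 has 657.5 bases. The summed level of the pair was 312 ± 15.9 CPM in shRNH1 cells and 269 ± 18.9 CPM in shControl cells (SD, n = 3 each). The coding sequences of the genes are 80.5% identical and their transcripts share no run longer than 23 bases, and 1.09% of 100-base windows of H2AZ2 and 4.50% of those of H2AZ1 occur in another gene.

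**Figure D2:**
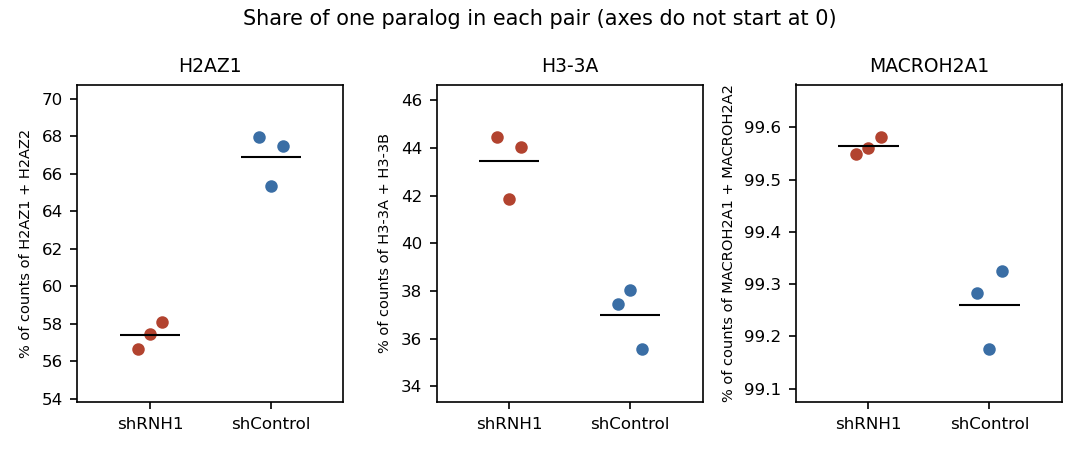
Percentage of the summed counts of a paralog pair that falls on the gene named above each panel, per library; points are the 3 shRNH1 libraries (left) and the 3 shControl libraries (right), lines are means, and the vertical axes do not start at 0. H2AZ1 holds a lower share of its pair, and H3-3A and MACROH2A1 a higher share of theirs, in all shRNH1 libraries than in any shControl library.

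H2AX encodes the H2A variant phosphorylated by ATM, ATR and DNA-PK around double-strand breaks. H2AX (ENSG00000188486, chr11:119093854-119095467, minus strand) had 651, 835 and 709 CPM in shRNH1 libraries, against 940, 866 and 1265 CPM in shControl libraries. The groups did not overlap, but the highest shRNH1 library lay just under the lowest shControl library. H2AX fell to 71.5% of its shControl level (95% interval of the fold 0.601 to 0.852; log2 fold change -0.48, SE 0.123, edgeR adjusted p = 0.00374). The call was lost without shRNH1 replicate 1 (log2 fold change -0.41, edgeR adjusted p = 0.0551) and with an offset for expression level (-0.30, edgeR adjusted p = 0.0765).

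Because H2AX shares the stem-loop shown above, its level was set beside that of the replication-dependent genes. The 69 replication-dependent histone genes summed to 8771, 7607 and 8648 CPM in shRNH1 libraries, against 9553, 7271 and 10353 CPM in shControl libraries. These sums overlapped between groups. In shRNH1 cells replicate 2 had the highest H2AX and the lowest sum, while in shControl cells replicate 3 was highest and replicate 2 lowest in both. Of the 55 replication-dependent genes tested, 4 rose and 4 fell, 14.5% called against 27.6% of all tested genes, and the median was -0.07 on the log2 scale. H3C6 (log2 fold change 1.13, edgeR adjusted p = 3.22e-06) and H2BC8 (0.65, edgeR adjusted p = 2.65e-04) rose, and H2AC15 (-0.53, edgeR adjusted p = 0.00149) and H2BC12 (-0.49, edgeR adjusted p = 0.00173) fell. The libraries were made from poly(A) RNA, so transcripts ending at the stem-loop are underrepresented, and the split of H2AX mRNA between its stem-loop and polyadenylated forms was not measured. No 100-base window of H2AX was found in another gene.

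H2AJ encodes an H2A variant known to accumulate in senescent human cells. H2AJ (ENSG00000246705, chr12:14774383-14778002, plus strand) had 18.8, 18.7 and 15.9 CPM in shRNH1 libraries, against 14.2, 12.3 and 17.0 CPM in shControl libraries. One library of each group lay within the range of the other group. The log2 fold change of 0.30 (SE 0.120, edgeR adjusted p = 0.0655) missed the threshold, with a 95% interval of the fold of 1.04 to 1.46 before adjustment. It was called without shControl replicate 3 (0.43, edgeR adjusted p = 0.00999), without shRNH1 replicate 3 (0.37, edgeR adjusted p = 0.0329) and with library size alone (0.42, edgeR adjusted p = 0.0128).

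The macroH2A genes differed widely in level. MACROH2A1 (ENSG00000113648, chr5:135333900-135399914, minus strand) had 488, 465 and 460 CPM in shRNH1 libraries, against 430, 419 and 451 CPM in shControl libraries. The shRNH1 values were all above the shControl values by a narrow margin, and the log2 fold change of 0.12 (SE 0.0924, edgeR adjusted p = 0.373) did not pass the test. Library size alone (0.23, edgeR adjusted p = 0.0177) and the offset for expression level (0.27, edgeR adjusted p = 0.0291) brought it past the threshold. Its splice forms, of which the macroH2A1.1 form binds ADP-ribose, are not told apart by counts per gene, and 25.8% of its 100-base windows lie in overlapping antisense genes, mainly PITX1-AS1, which had 155 to 216 counts per library.

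MACROH2A2 (ENSG00000099284, chr10:70052796-70112280, plus strand) had 2.21, 2.05 and 1.94 CPM in shRNH1 libraries, from 75, 72 and 64 counts, against 3.11, 3.48 and 3.07 CPM in shControl libraries, from 121, 144 and 113 counts. The groups did not overlap. It fell to 64.2% of its shControl level (95% interval of the fold 0.484 to 0.852; log2 fold change -0.64, SE 0.199, edgeR adjusted p = 0.0166). The call was lost with library size alone (-0.53, edgeR adjusted p = 0.0582), without shControl replicate 2 (-0.59, edgeR adjusted p = 0.0583) and without shRNH1 replicate 3 (-0.60, edgeR adjusted p = 0.0617). MACROH2A1 made up 99.5%, 99.6% and 99.6% of the pair in shRNH1 libraries, against 99.3%, 99.2% and 99.3% in shControl libraries. MACROH2A2 was thus a small part of the macroH2A mRNA of both groups, 0.437% of the counts of the pair in shRNH1 cells and 0.739% in shControl cells, a difference that did not overlap between libraries (exact two-sided permutation p = 0.1).

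H3-3A and H3-3B encode the same protein, histone H3.3, with different untranslated regions and different codons: their coding sequences are 78.4% identical over 408 bases. H3-3B (ENSG00000132475, chr17:75776434-75785893, minus strand) had 185, 189 and 189 CPM in shRNH1 libraries, against 223, 215 and 229 CPM in shControl libraries. The groups were tight and did not overlap. H3-3B fell to 84.5% of its shControl level (95% interval of the fold 0.744 to 0.959; log2 fold change -0.24, SE 0.0890, edgeR adjusted p = 0.0425). This was the smallest of the 5 calls and the least stable: it was lost in 10 of 16 alternatives, among them library size alone (-0.13, edgeR adjusted p = 0.233) and the omission of any 1 library (-0.22 to -0.28). H3-3B shares 214 exonic bases with UNK on the other strand, which had 1340 to 1981 counts per library against 6229 to 8897 for H3-3B. The strand setting is not known, so reads of that stretch cannot be told apart.

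H3-3A (ENSG00000163041, chr1:226061851-226072001, plus strand) had 148, 136 and 149 CPM in shRNH1 libraries, against 134, 132 and 126 CPM in shControl libraries. The groups did not overlap, and the log2 fold change of 0.14 (SE 0.0892, edgeR adjusted p = 0.249) did not pass the test. H3-3A made up 44.4%, 41.9% and 44.0% of the pair in shRNH1 libraries, against 37.4%, 38.0% and 35.5% in shControl libraries. The groups did not overlap and the mean share was 6.43 percentage points higher in shRNH1 cells (exact two-sided permutation p = 0.1, 0.1 after adjustment over 3 pairs). The summed level of both H3.3 genes was 332 ± 5.86 CPM in shRNH1 cells and 353 ± 4.95 CPM in shControl cells (SD, n = 3 each). Processed pseudogenes of H3-3A held 5.84% to 7.68% as many counts as the gene itself, and adding them to it changed no call among the members.

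H1-10 encodes the linker histone H1.10, also called H1.X, a divergent member of the H1 family. H1-10 (ENSG00000184897, chr3:129314771-129316277, minus strand) had 327, 326 and 352 CPM in shRNH1 libraries, against 226, 219 and 265 CPM in shControl libraries. Every shRNH1 library was above every shControl library. H1-10 rose 1.41-fold (95% interval 1.23 to 1.62; log2 fold change 0.50, SE 0.0969, edgeR adjusted p = 2.75e-04), and the call held under all 16 alternative settings, at 0.44 to 0.63. Its antisense gene H1-10-AS1, which shares 345 exonic bases with it, had 61 to 101 counts per library against 8802 to 11604 for H1-10.

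**Figure D3:**
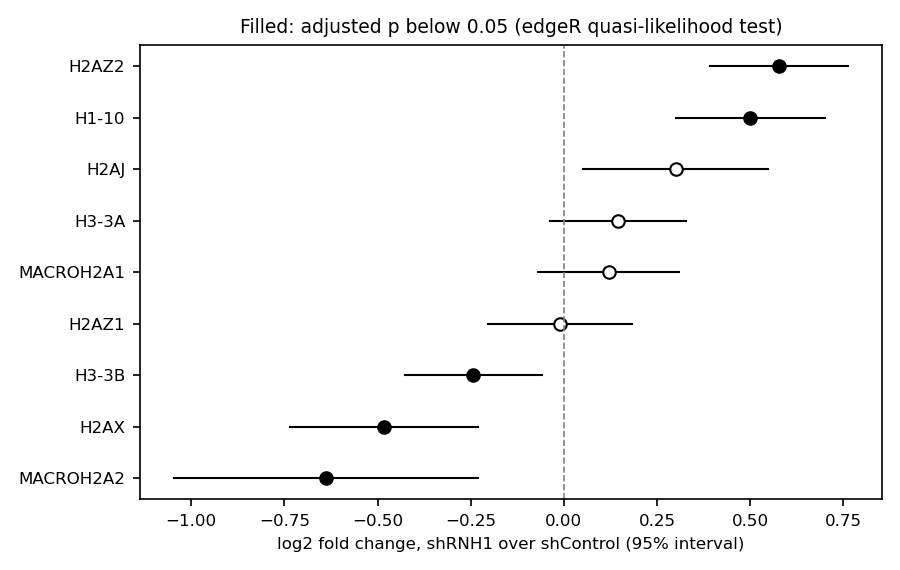
Log2 fold change of each histone variant gene, shRNH1 over shControl, with its 95% interval (horizontal line) from the edgeR fit of 3 against 3 libraries; filled points have an adjusted p below 0.05. H2AZ2 (0.58) and H1-10 (0.50) stand at the high end and MACROH2A2 (-0.64) and H2AX (-0.48) at the low end, with the interval of H2AZ1 centred near 0.

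The genes were ordered by CPM per kilobase of the longest coding transcript, so that levels could be compared between genes. In shRNH1 cells H2AX came first at 453 ± 58.4 CPM per kilobase, then H1-10 (222 ± 9.75), H2AZ1 (183 ± 10.3), MACROH2A1 (169 ± 5.33), H3-3A (77.5 ± 3.72), H3-3B (69.5 ± 0.804), H2AZ2 (34.9 ± 1.70), H2AJ (27.7 ± 2.55) and MACROH2A2 (1.04 ± 0.0690; all SD, n = 3). In shControl cells H2AX was also first at 634 ± 132 CPM per kilobase, then H2AZ1 (184 ± 16.0), H1-10 (157 ± 16.6), MACROH2A1 (155 ± 5.89), H3-3B (82.2 ± 2.52), H3-3A (70.1 ± 2.08), H2AZ2 (23.4 ± 1.09), H2AJ (22.5 ± 3.63) and MACROH2A2 (1.63 ± 0.116; all SD, n = 3). On this length H1-10 stood above H2AZ1, and H3-3A above H3-3B, in shRNH1 cells, and both pairs stood the other way in shControl cells. Neighbours whose means ± 1 SD overlapped were H2AZ1 and MACROH2A1 in shRNH1 cells, and H2AZ1 and H1-10, H1-10 and MACROH2A1, and H2AZ2 and H2AJ in shControl cells. The order depends on the length used. With all exons of a gene merged, neither of these pairs changed order between the groups: H1-10 had 222 ± 9.75 CPM per kilobase and H2AZ1 77.7 ± 4.39 in shRNH1 cells, against 157 ± 16.6 and 78.4 ± 6.78 in shControl cells. H3-3A likewise had 45.9 ± 2.20 CPM per kilobase and H3-3B 30.6 ± 0.355 in shRNH1 cells, against 41.5 ± 1.23 and 36.3 ± 1.11 in shControl cells. On that length MACROH2A1 had 26.6 ± 0.838 CPM per kilobase in shRNH1 cells and 24.4 ± 0.927 in shControl cells. H2AZ2 had 28.0 ± 1.36 and 18.7 ± 0.875, so it stood above MACROH2A1 in shRNH1 cells, with overlapping means ± 1 SD, and below it in shControl cells. The place of H2AZ2 depends strongly on length, as its longest coding transcript has 3804 bases and its median one 657.5 bases.

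H2A.Z is put into nucleosomes by the SRCAP and TIP60-p400 complexes, and INO80 and ANP32E have been described as acting in its removal. Of 28 such genes, 0 rose and 6 fell by edgeR, 21.4% called against 27.6% of all tested genes (15.3% higher and 12.3% lower), and the median was -0.08 on the log2 scale against 0.02 over all tested genes. With edgeR's p left unadjusted and a limit of 0.05, 2 were higher and 7 lower, and DESeq2 and limma-voom each called 0 higher and 6 lower. EP400, the ATPase of TIP60-p400, had 372, 400 and 350 CPM in shRNH1 libraries, against 502, 522 and 606 CPM in shControl libraries, without overlap (log2 fold change -0.54, edgeR adjusted p = 1.63e-04). The other falls were DMAP1, a subunit of both depositing complexes (-0.54, edgeR adjusted p = 1.68e-04), INO80C (-0.75, edgeR adjusted p = 5.81e-04), ACTR5 (-0.45, edgeR adjusted p = 0.00209) and the ATPase INO80 (-0.33, edgeR adjusted p = 0.00563), which belong to the INO80 complex, and EPC2 of TIP60-p400 (-0.34, edgeR adjusted p = 0.0299). INO80 lost its call with library size alone (-0.22), and EPC2 lost it with library size alone (-0.24) and without shControl replicate 1 (-0.35), shControl replicate 2 (-0.29) or shRNH1 replicate 2 (-0.26). The count called was still 6 with library size alone and without shControl replicate 1, so genes outside these 6 were called there. It was 7 with the offset for expression level and without shRNH1 replicate 2, and 5 without shControl replicate 2. The direction of those further calls is not given here. SRCAP, the ATPase of the other depositing complex, and the H2A.Z chaperones VPS72 and ANP32E were not called (0.04, -0.19 and 0.09 on the log2 scale).

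H3.3 is deposited by HIRA with UBN1, UBN2 and CABIN1 in genes, and by DAXX with ATRX at repeats. Of 8 such genes 0 were called by edgeR, by DESeq2 or by limma-voom, with 1 (HIRA, log2 fold change -0.26, edgeR adjusted p = 0.0758) at an unadjusted p under 0.05. The range was -0.26 for HIRA to 0.21 for ATRX, with a median of 0.08. Library size alone and the omission of shRNH1 replicate 2 each called 2 of the 8, and the offset for expression level and the omission of shControl replicate 2 each called 1.

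Among 18 general histone chaperones, 1 rose and 2 fell, 16.7% called against 27.6% of all tested genes, with a median of -0.10 on the log2 scale. ASF1B, which hands H3-H4 to the replication machinery, had 147, 139 and 140 CPM in shRNH1 libraries, against 93.1, 91.2 and 110 CPM in shControl libraries, without overlap (0.53, edgeR adjusted p = 9.27e-05). ANP32B (-0.37, edgeR adjusted p = 0.00263) and SUPT6H, a chaperone of transcribed nucleosomes (-0.34, edgeR adjusted p = 0.00720), fell. SUPT6H lost its call with the offset for expression level (-0.21) and without shRNH1 replicate 3 (-0.30). Without shControl replicate 3, 5 of the 18 were called.

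Of 15 genes that phosphorylate, dephosphorylate or read H2A.X, 2 rose and 1 fell, 20.0% called against 27.6% of all tested genes, with a median of 0.12 on the log2 scale. MRE11 (0.39, edgeR adjusted p = 0.00364) and PPP4C, the catalytic subunit of a phosphatase that acts on phosphorylated H2A.X (0.33, edgeR adjusted p = 0.00964), rose, and NBN fell (-0.36, edgeR adjusted p = 0.00810), although MRE11 and NBN proteins belong to the same break-sensing complex. The kinases ATM (0.23), ATR (-0.22) and PRKDC (0.12) and the reader MDC1 (-0.22) were not called. The count called was 5 with DESeq2, with protein-coding genes alone and with library size alone, and 1 without shControl replicate 2, where NBN (-0.31) and PPP4C (0.29) lost their calls. NBN also lost it with library size alone (-0.25) and PPP4C without shRNH1 replicate 1 (0.27). Of 7 genes of ADP-ribose turnover and macroH2A, 0 rose and 1 fell by edgeR, DESeq2 and limma-voom alike, and the same numbers stood at an unadjusted p under 0.05 by edgeR. That is 14.3% called against 27.6% of all tested genes, and the median was -0.02 on the log2 scale. Without shControl replicate 3, and with library size alone, 2 of the 7 were called. The fall was ADPRS, a hydrolase that removes ADP-ribose from serine (-0.51, edgeR adjusted p = 4.41e-04), and PARP1, the main writer of that mark, had -0.02.

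**Figure D4:**
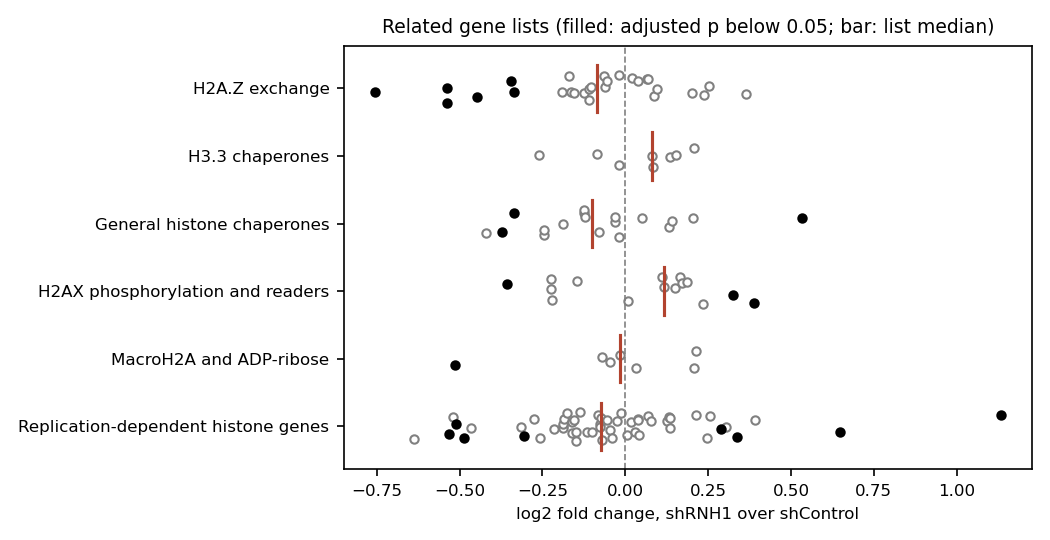
Log2 fold changes, shRNH1 over shControl, of the tested genes of 5 lists of deposition, chaperone and reader genes and of replication-dependent histones; each point is a gene, filled where its adjusted p is below 0.05, and the red bar is the list's median. The filled points of H2A.Z exchange all lie below 0, the H3.3 chaperones hold no filled point, and H3C6 (1.13) lies farthest to the right.

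Among variant histone genes outside the set, 6 had at most 2 counts in any library and were not tested. CENPA, the H3 variant of centromeres, had 25.4, 28.5 and 24.8 CPM in shRNH1 libraries, against 34.2, 32.3 and 36.1 CPM in shControl libraries, and fell (-0.38, edgeR adjusted p = 0.00430), a call lost with library size alone (-0.27, edgeR adjusted p = 0.0576).

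The 3 genes whose log2 CPM over the 6 libraries was most like that of H2AZ2 were MMP1, CPS1 and RTN3, each with a Pearson r of 0.999, among tested genes whose mean log2 CPM was 2 or more. The r describes 6 libraries in 2 groups that differ in H2AZ2, and no test is attached. MMP1, a collagenase, had a log2 fold change of 1.07, CPS1, a mitochondrial carbamoyl phosphate synthetase, of 1.31, and RTN3, a reticulon of the endoplasmic reticulum, of 0.64.

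**Figure D5:**
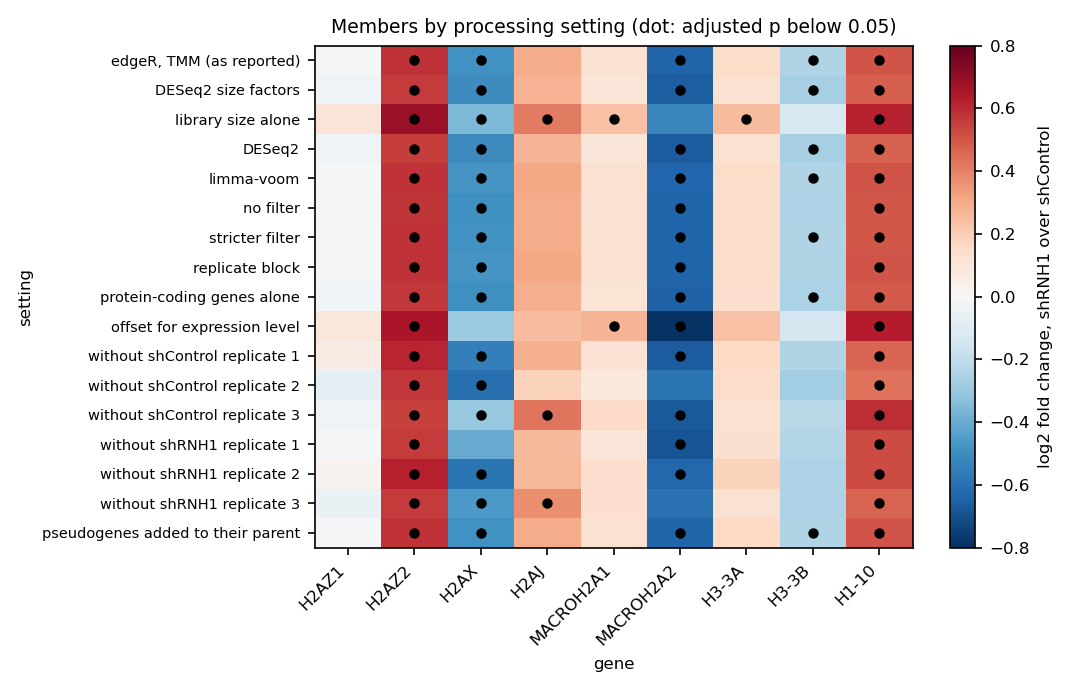
Log2 fold change, shRNH1 over shControl (colour, red higher and blue lower in shRNH1 cells), of the 9 genes (columns) in the reported fit and under 16 alternative settings (rows); a dot marks an adjusted p below 0.05. The columns of H2AZ2 and H1-10 carry a dot in every row, and that of H3-3B in 7 of 17 rows.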

How the data were processed

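RNA was measured in 3 shRNH1 and 3 shControl libraries, from poly(A) RNA per the labels' protocols. The authors deposited unnormalised whole-number counts for 62700 Ensembl IDs. The tools named in the submitters' processing notes are HISAT2, StringTie and DESeq2, with GRCh38 as build. The sources used here give no versions, counter, strand setting or annotation release, so reads of a stretch shared with an antisense gene cannot be told apart. All 62700 IDs had a symbol; positions and transcripts came from GENCODE 29, another release, which held 58207 of the IDs. Count columns matched sample descriptions and 0 were left over.

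Genes were tested with edgeR (version 4.0.16, R 4.3.3; quasi-likelihood, TMM, filterByExpr by group, no covariate, Benjamini-Hochberg over 19682 genes, threshold 0.05), tested on simulated data. The 95% intervals and SEs come from the fit and cover the spread between these libraries, which the labels call biological replicates without naming separate cultures. Chi-square values between replicates of a group, 6.47 to 21.1 per gene, were above sampling noise. Paralog shares were compared by exact permutation. Alternatives were scaling by library size alone or by DESeq2's size factors, limma-voom (limma 3.58.1), DESeq2 1.42.0, no filter, a stricter filter (CPM of at least 1), a replicate block, protein-coding genes alone, an offset for expression level (a spline with 5 degrees of freedom, MASS), pseudogenes added to their parent, and each library left out.

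The members, gene lists and tests were chosen with earlier results of these data known. Named genes were all members, RNASEH1 and RNH1, per list the called genes with the smallest adjusted p (up to 6 for H2A.Z and H3.3, up to 4 otherwise), and the 3 genes most like the member with the smallest adjusted p; others, such as SRCAP or ATM, were named for their role after values were seen. Protein sequences are not used here, and the result of 1 gene chosen by this rule is not given here.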

Additional observations from a re-analysis of the deposited data

How the results depend on the processing

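H2AZ2 and H1-10 kept their direction and call under all 16 alternatives, and the differences in paralog share kept their direction under all 8 of theirs. With library size alone the log2 fold changes were 0.10 for H2AZ1 (direction turned), 0.42 for H2AJ, 0.23 for MACROH2A1 and 0.26 for H3-3A, the last 3 now called, and -0.53 for MACROH2A2 and -0.13 for H3-3B, no longer called. With the offset for expression level they were 0.093 for H2AZ1 (turned), 0.27 for MACROH2A1 (called), and -0.30 for H2AX and -0.13 for H3-3B (not called). H3-3B also lost its call with no filter (-0.25). Leaving out 1 library at a time gave -0.071 to 0.059 for H2AZ1 (0.059 without shControl replicate 1 and 0.030 without shRNH1 replicate 2), -0.28 to -0.22 for H3-3B (never called), -0.60 to -0.30 for H2AX, 0.18 to 0.43 for H2AJ and -0.69 to -0.59 for MACROH2A2. The members called numbered 3 to 5 over these fits, 3 without shControl replicate 2 or without shRNH1 replicate 1. The causes were not tested. Same-numbered libraries did not deviate together (r of 0.05, 0.03 and -0.15), so the numbers are not taken to pair them; with the replicate block H3-3B lost its call (-0.24), 4 members and 5094 genes were called, and no other member changed its call. Over all genes 4150 to 5498 were called. MACROH2A2 rests on 64 to 144 counts per library, the fewest of the 9 genes.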
